A study of Mus musculus with 6 samples.

Results

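The miRNA miR-210 was followed in whole mouse ovary through the 2 mature strands cut from its hairpin, miR-210-3p and miR-210-5p, which are 2 of the 1300 rows of the deposited table and were taken by name. Small RNA was sequenced from 6 libraries, 3 from female C57BL/6J mice kept at normal pressure in Lanzhou and 3 from female C57BL/6J mice kept in a hypobaric chamber. Per the design text, the controls lived at 1588 m and 83.56 kPa and the chamber simulated 6500 m at 43.12 kPa. There the mice were 8 weeks old and exposure lasted 15 days. Oxygen pressure is given as 17.8 kPa for the controls and 8.1 kPa for the hypobaric mice. Per the descriptions, both groups were first synchronized by oral levonorgestrel and ethinylestradiol, with doses (0.1 and 0.02 mg/kg) given for the hypobaric mice alone. The labels disagree on some points. The altitude of the controls is 1500 m in the titles, the simulated altitude is 5000 m in the descriptions, the age there is 6 to 8 weeks, and the exposure there is 15, 16 and 17 days by replicate number. The dark phase of the light cycle is labelled 12, 13 and 14 h in control libraries 1, 2 and 3 and 12 h in all 3 hypobaric ones. Each group is said to hold 15 mice, and whether a library is 1 mouse or a pool is not given, so the p-values compare these libraries and part of their spread may be technical.

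A miRNA is a short RNA that guides the Argonaute protein to messenger RNAs matching its seed, bases 2 to 8, and so lowers their output. miR-210 is the best-known miRNA target of the hypoxia-inducible factors (HIFs), transcription factors whose alpha subunits are marked for destruction by oxygen-dependent hydroxylases and the VHL ubiquitin ligase and therefore build up when oxygen is low. Its known targets include Iscu and Sdhd, which serve mitochondrial respiration, Gpd1l, which bears on HIF stability, and the ephrin gene Efna3. In the ovary, the granulosa layer of the follicle has no vessels of its own until the corpus luteum forms, and HIF and VEGF signalling belong to that change.

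The hairpin and both strands are shown because reads of the 2 strands are the whole measurement; the sequences are from RefSeq on GRCm38.p6. The hairpin, 110 bases on chromosome 7, 141221384 to 141221493, minus strand, carries the strands in capitals, 5p first.
Mir210 hairpin: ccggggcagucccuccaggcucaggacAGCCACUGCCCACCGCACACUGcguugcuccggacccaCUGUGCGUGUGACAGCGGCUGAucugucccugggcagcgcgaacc
In the mature strands the capitals mark the seed, bases 2 to 8.
mmu-miR-210-3p: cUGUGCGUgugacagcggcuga
mmu-miR-210-5p: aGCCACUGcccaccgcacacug
The 3p strand lies at 141221407 to 141221428 and the 5p strand at 141221445 to 141221466, with 16 bases of loop between them. Of the hairpin's bases 69.1% were G or C, more than in 96.7% of the 1005 mouse hairpins in the same RefSeq table, and its predicted fold had a free energy of -48.0 kcal/mol. In that fold 17 of the 22 bases of the 3p strand and 18 of the 22 of the 5p strand were paired. No other of the 1738 mature entries had either seed, and none had the same bases 2 to 7. The longest stretch that either strand shared with any other of these hairpins was 10 bases, so no near-identical copy was found among them. The 275 predicted rows of the deposited table, and its annotated names without a RefSeq entry, were not compared. In GENCODE vM21 no gene contains the hairpin. The nearest genes are Rassf7, 2726 bases away, and Phrf1, 7291 bases away.

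miR-210-3p was higher under hypobaric hypoxia in each library than in any control. It was at 3.48, 4.52 and 4.52 RPM (reads per 1000000 reads of the library) in control (normal-pressure) libraries 1, 2 and 3 and at 16.0, 15.1 and 9.98 RPM in hypobaric libraries 1, 2 and 3. The groups did not overlap. Hypobaric library 3 was the lowest of its group and still 2.21 times the highest control. The group means were 4.17 ± 0.602 and 13.7 ± 3.25 RPM (SD, n = 3), a ratio of 3.28. A two-sided exact permutation test gave p = 0.1, and 3 against 3 allows no smaller value. On the log2(RPM + 1) scale, which understates the change of low miRNAs, the change was 1.49 ± 0.23 (SE), or 2.80-fold, with a 95% interval of 0.96 to 2.01. In limma the Benjamini-Hochberg adjusted p over all tested miRNAs was 0.00679. Of the 475 miRNAs tested, those with a mean of at least 1 RPM, 3.16% were called higher at an adjusted p under 0.05 and 4.84% were called in either direction. edgeR and DESeq2 called 5.26% and 13.3% in either direction. Groups that did not overlap were found in 26.7% of the 475, and in 19.2% with the hypobaric group higher. The median log2 change of all 475 was 0.15, and relative to it miR-210-3p was at 1.33.

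These levels rest on few reads. miR-210-3p was read 73, 102 and 94 times in the control libraries and 339, 317 and 212 times in the hypobaric ones. Counting error alone, as 1 SD, would be 9.90% to 11.7% of the control values and 5.43% to 6.87% of the hypobaric ones. The SD between libraries was 14.4% of the mean in the controls and 23.7% in the hypobaric group, so the hypobaric libraries differed by more than counting error gives. The exact 95% counting interval of hypobaric library 3, 8.68 to 11.4 RPM, lay below those of libraries 1 (14.3 to 17.8 RPM) and 2 (13.5 to 16.9 RPM). It lay above the interval of each control, of which the highest ended at 5.53 RPM. These intervals were computed from the read numbers alone, so they cover counting error only.

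**Figure D1:**
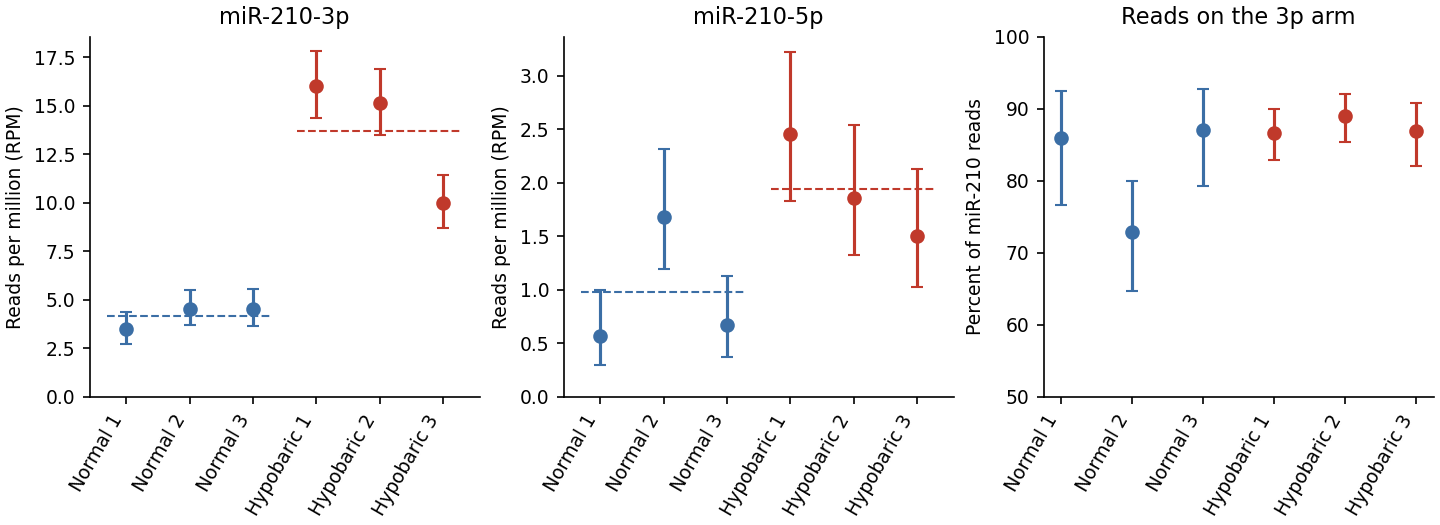
Levels of miR-210-3p and miR-210-5p in RPM and the percent of miR-210 reads on the 3p arm in each of the 6 libraries (blue, normal pressure; red, hypobaric). Points are single libraries, bars are exact 95% counting intervals and dashed lines are group means; for miR-210-3p the controls lie between 3.48 and 4.52 RPM and the hypobaric libraries between 9.98 and 16.0 RPM, while for miR-210-5p the groups overlap.

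miR-210-5p, the strand that is mostly discarded after the hairpin is cut, did not pass the test. It was at 0.572, 1.68 and 0.673 RPM in control libraries 1, 2 and 3 and at 2.45, 1.86 and 1.51 RPM in hypobaric libraries 1, 2 and 3. The groups overlapped, because control library 2 was above hypobaric library 3. The reads behind these values numbered 12, 38 and 14 in the controls and 52, 39 and 32 in the hypobaric group. The means were 0.976 ± 0.615 and 1.94 ± 0.479 RPM (SD, n = 3). The log2 change was 0.60 ± 0.26 (SE) with a 95% interval of 0.02 to 1.19, and the limma adjusted p was 0.234. Without normal-pressure library 2 and hypobaric library 3, the pair that stood apart from the other 4 in earlier work on this table, the change was 0.95 with a limma adjusted p = 0.0394. For miR-210-5p that pair is the highest control and the lowest hypobaric library, so leaving it out had to raise the change. Added together, both strands were at 5.15 ± 1.08 RPM in the controls and 15.6 ± 3.67 RPM in the hypobaric group (SD, n = 3). The sum rose by 1.43 ± 0.24 (SE) on the log2 scale, and its limma adjusted p was 0.0108. That call was lost without hypobaric library 1 (limma adjusted p = 0.0664) or 2 (0.0612).

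The 3p strand held most of the miR-210 reads in all 6 libraries. Its share was 85.9%, 72.9% and 87.0% in normal-pressure libraries 1, 2 and 3 and 86.7%, 89.0% and 86.9% in hypobaric libraries 1, 2 and 3. Control library 2 stood below the other 5, with an exact 95% binomial interval of 64.7% to 80.0%, and the groups overlapped. The mean share was 81.9% ± 7.87 in the controls and 87.5% ± 1.30 in the hypobaric group (SD, n = 3), with p = 0.3 in a two-sided exact permutation test. Without control library 2 the difference between the group means went from 5.62 to 1.08 percentage points. As a log2 ratio of 3p to 5p reads, the controls lay between 1.42 and 2.75 and the hypobaric libraries between 2.70 and 3.02, so the groups overlapped here too (exact permutation p = 0.3, two-sided). With 0.1 RPM added to each strand before the ratio is taken, which lowers the ratio most where reads are fewest, they lay between 1.37 and 2.58 and between 2.65 and 2.96 and no longer overlapped (exact permutation p = 0.1, two-sided). A difference in strand choice between the groups was therefore not shown, and the share is known only to within several percentage points at these read numbers.

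miR-210-3p moved up the order of miRNAs in each hypobaric library. By level it ranked 336, 304 and 326 in normal-pressure libraries 1, 2 and 3, among 1020 to 1053 miRNAs with a read. In hypobaric libraries 1, 2 and 3 it ranked 223, 221 and 249, among 966 to 977. It thus lay above 68.8% ± 1.37 of the detected miRNAs in the controls and above 76.2% ± 1.61 in the hypobaric group (SD, n = 3; exact permutation p = 0.1, two-sided). Counted per 1000000 miRNA reads instead of per 1000000 library reads, it was at 9.57, 14.9 and 12.9 in normal-pressure libraries 1, 2 and 3 and at 39.0, 39.7 and 26.2 in hypobaric libraries 1, 2 and 3. The ratio of the means on that scale was 2.81, against 3.28 on the deposited scale, and the groups again did not overlap. Among the 475 tested, miR-210-3p ranked 9 by p and 8 by size of rise. Next to it by p were miR-144-3p, a red-cell miRNA, and miR-132-3p (log2 change -1.37); next by size of rise were the gonad-enriched miR-202-3p (1.81) and miR-19b-3p of the miR-17 to miR-92 cluster (1.32).
At levels within 2-fold of its own mean, 4.49 to 17.4 RPM, 115 other miRNAs were tested. Of these 3.48% were called, namely miR-335-5p, miR-486a-3p, miR-486b-3p and miR-96-5p. How reads were divided between the miR-486a and miR-486b names is not stated, so their calls may not be separate results. A larger log2 change was found in 2 of the 115.

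**Figure D2:**
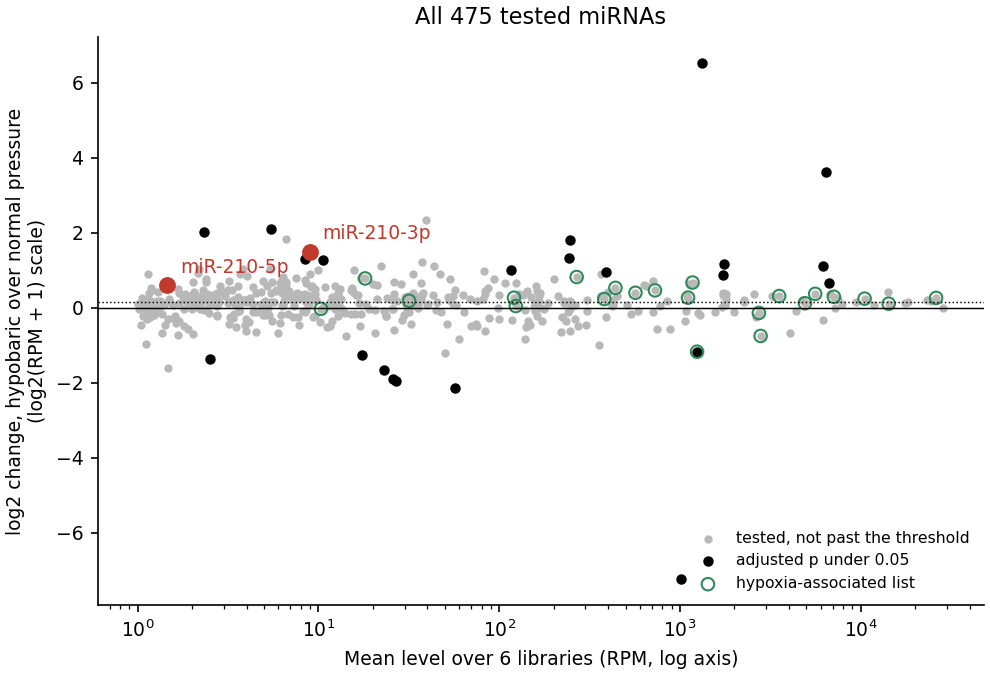
Log2 change between hypobaric and normal pressure (vertical axis, log2(RPM + 1) scale) against mean level over 6 libraries (horizontal log axis, RPM) for the 475 tested miRNAs. Black points passed an adjusted p of 0.05, green rings mark the hypoxia-associated list, red points the miR-210 strands, and the dotted line is the median of 0.15; miR-210-3p sits at 1.49 and miR-210-5p at 0.60.

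The call on miR-210-3p was kept under each of the 20 alternatives tried. Its log2 change lay between 1.27 and 1.73, and the adjusted p (limma, edgeR or DESeq2) ran up to 0.0437, without hypobaric library 1. Scalings that brought the median change of all miRNAs to between -0.05 and 0.03 gave 1.27 to 1.35. edgeR and DESeq2 on the recovered reads gave 1.51 and 1.52, with adjusted p = 0.0112 and 5.37e-07.

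**Figure D3:**
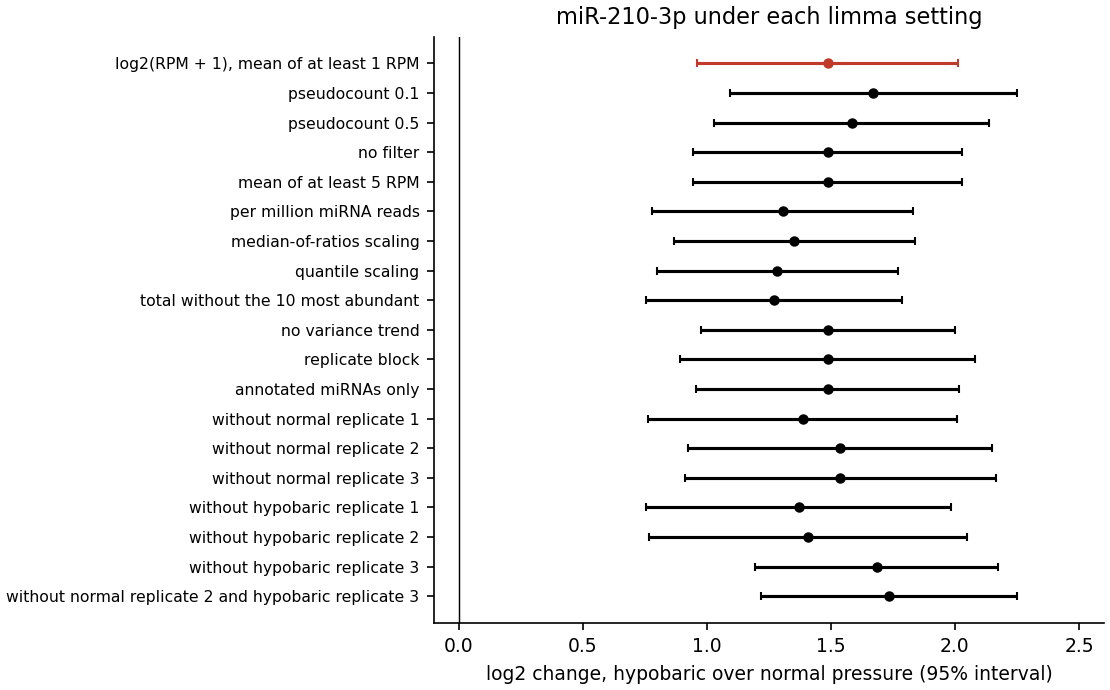
Log2 change of miR-210-3p with its 95% interval (horizontal axis) under each limma setting (vertical axis), the reported one in red. All 19 intervals shown lie above 0, and the estimates run from 1.27 to 1.73.

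Among other miRNAs described as raised in hypoxic cells, none was called higher in limma with all 6 libraries. This list held 23 mouse counterparts, of which 22 were tested: 0 rose, 1 fell and 21 did not pass in limma, against 4.84% of all miRNAs called. An unadjusted p under 0.05 was seen for 7 of them, and for 20.2% of the 475. edgeR called 2 (5.26% of all), both lower, and DESeq2 called 4 (13.3% of all), of which miR-93-5p and miR-107-3p were higher. The change was above 0 for 18 of the 22 and for 65.7% of the 475. The list's median log2 change was 0.26 beside 0.15 for all. With the 4 other scalings the list's median was 0.02 to 0.11, beside -0.05 to 0.03 for all. The 22 changes ran from -1.17 to 0.82, all below the 1.49 of miR-210-3p. The fall was that of miR-21a-5p, an abundant miRNA of cell survival and of luteal cells. It was at 1825, 2077 and 1285 RPM in control libraries 1, 2 and 3 and at 898, 671 and 702 RPM in hypobaric libraries 1, 2 and 3. On the log2 scale miR-21a-5p changed by -1.17 ± 0.22 (SE), with an adjusted p = 0.0148 in limma, a call lost without normal-pressure library 1 (0.0538) or hypobaric library 2 (0.0696). miR-24-3p was at -0.75 with limma adjusted p = 0.124, and the 4 other scalings brought it past the threshold (0.0293 to 0.0498). Without hypobaric library 3, 1 member was called higher, miR-107-3p (limma adjusted p = 0.0433), beside 25 of all 475. Without normal-pressure library 2 as well, 2 were called higher, including miR-107-3p (limma adjusted p = 0.0399), beside 36 of all 479. By level, all 22 lay above miR-210-3p, with means over the 6 libraries from 10.3 to 26108 RPM against 8.93 RPM.

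A second list held miRNAs described as acting on the HIF pathway itself. In limma 0 of its 11 tested members passed, against 4.84% of all tested miRNAs. An unadjusted p under 0.05 was seen for 4 of them, and for 20.2% of all. With edgeR the number called was 0 (5.26% of all), and with DESeq2 it was 2 (13.3% of all), miR-17-5p and miR-20a-5p, both higher. Of the 8 described as lowering HIF alpha, 5 had positive log2 changes, against 65.7% of all, and their median was 0.48. Over all 11 the median was 0.24, beside 0.15 for all tested. With the 4 other scalings the median of the 11 was -0.02 to 0.09, beside -0.05 to 0.03 for all tested. miR-17-5p, from the proliferation-linked miR-17 to miR-92 cluster, was at 28.9, 18.8 and 31.6 RPM in control libraries 1, 2 and 3 and at 70.2, 75.6 and 35.3 RPM in hypobaric libraries 1, 2 and 3. The groups did not overlap, and hypobaric library 3 was again the lowest of its group. It changed by 1.12 ± 0.33 (SE) on the log2 scale, with an adjusted p = 0.0927 in limma, and 0.0184 without hypobaric library 3. Its cluster neighbour miR-20a-5p was at 0.90 ± 0.25 (SE) with limma adjusted p = 0.0837, and 0.0169 without that library. Of the 3 described as acting on HIF regulators, miR-322-5p and miR-92a-3p were at 0.24 and 0.22, and miR-31-5p was at -0.11, with limma adjusted p from 0.524 to 0.804.

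Of the 32 distinct names on the 2 lists, 30 had a RefSeq mature sequence, and 0 of them carried a miR-210 seed. The sequences show the largest groups with a common seed among the names whose groups did not overlap; capitals mark bases 2 to 8.
mmu-miR-17-5p: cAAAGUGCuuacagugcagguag
mmu-miR-20a-5p: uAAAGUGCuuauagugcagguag
mmu-miR-20b-5p: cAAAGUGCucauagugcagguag
mmu-miR-93-5p: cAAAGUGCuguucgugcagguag
mmu-miR-103-3p: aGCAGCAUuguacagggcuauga
mmu-miR-107-3p: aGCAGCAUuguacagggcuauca
The 4 tested names with the first seed had log2 changes of 1.12, 0.90, 0.70 and 0.67, and 0 of them passed (limma adjusted p 0.0837 to 0.145). miR-103-3p and miR-107-3p, from introns of the pantothenate kinase genes, were at 0.53 and 0.78 (limma adjusted p = 0.141 and 0.115). Strands this alike can exchange reads, so the split between their names is uncertain. For miR-210 no strand this alike was found among the RefSeq hairpins. These groups were picked after their values were seen.

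**Figure D4:**
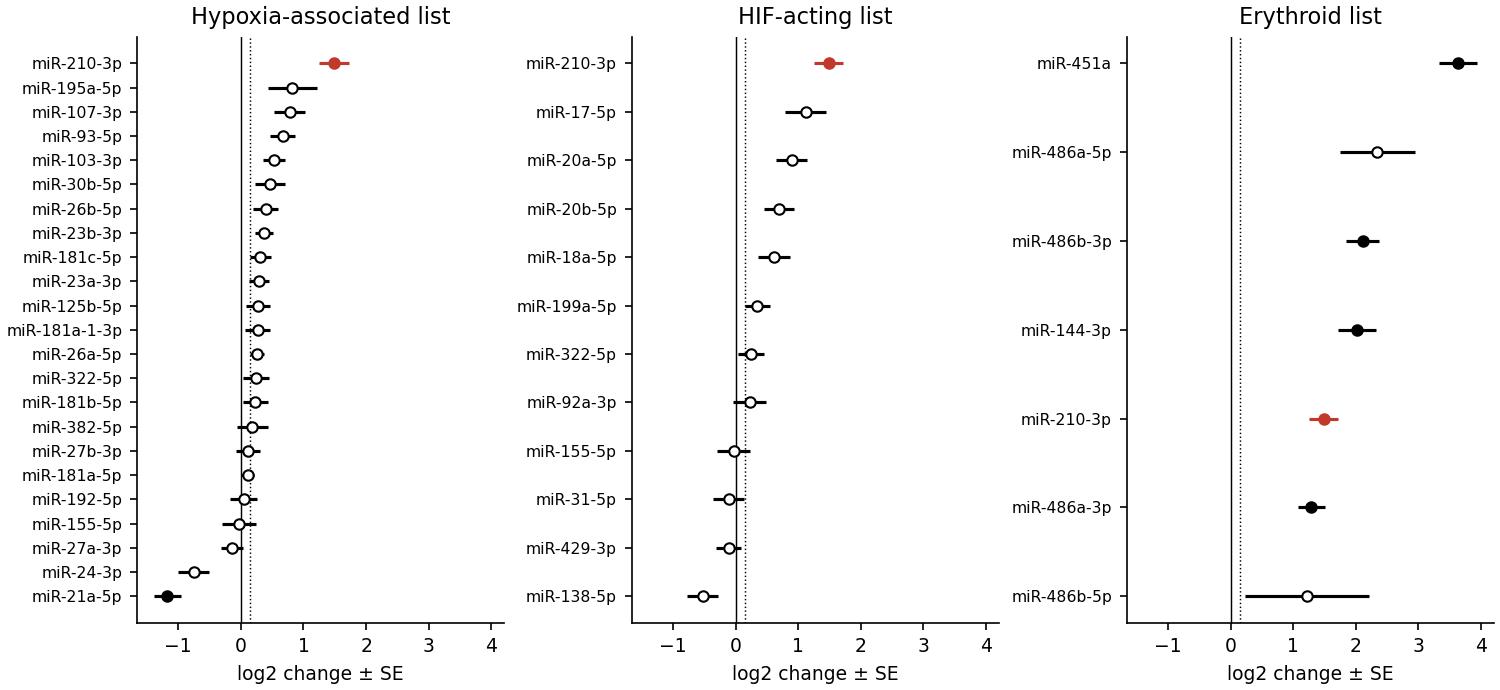
Log2 change with its SE (horizontal axis) for the tested members of the hypoxia-associated, HIF-acting and erythroid lists, each with miR-210-3p in red. Filled points passed an adjusted p of 0.05 in limma and the dotted line is the median of all tested miRNAs; miR-210-3p lies above all members of the first 2 lists, and among the erythroid members, whose changes run from 1.22 to 3.63.

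Most of the red-cell miRNAs tested rose in the same comparison as miR-210-3p. Of the 6 tested members of the erythroid list, 4 rose in limma and 0 fell, against 3.16% of all tested miRNAs called higher. The 6 names belong to the miR-144 and miR-451 locus and to miR-486, so they are not 6 separate results. The median log2 change of the 6 was 2.06, beside 0.15 for all. The other 2 did not pass, miR-486a-5p at 2.35 (limma adjusted p = 0.0620) and miR-486b-5p at 1.22 (0.505). The groups of miR-486b-5p overlapped, and its Pearson's r with miR-210-3p over the 6 libraries was 0.30. In each group the library highest in miR-486a-5p was lowest in miR-486b-5p. These were control library 3 (30.8 and 3.99 RPM) and hypobaric library 2 (101 and 5.82 RPM). The called miR-486a-3p and miR-486b-3p had the same value, 12.6 RPM, in hypobaric library 1. How reads were divided between the miR-486a and miR-486b names is not stated for either strand, so each value alone is uncertain. Of the 4 called, miR-486a-3p was lost without hypobaric library 1 (limma adjusted p = 0.0536). Their summed level over 7 names was 726 to 1577 RPM in the controls and 9459 to 15085 RPM in the hypobaric group. miR-451a, the most abundant of them, was at 1549, 676 and 790 RPM in control libraries 1, 2 and 3 and at 14917, 9330 and 11328 RPM in hypobaric libraries 1, 2 and 3. Among the hypobaric libraries the sum, miR-451a, miR-486a-3p and miR-486b-3p were lowest in library 2. miR-144-3p was lowest in library 3, as was miR-210-3p. miR-451a was 150 to 445 times miR-210-3p in the controls and 617 to 1135 times in the hypobaric group. The part of red-cell RNA in the miR-210-3p result was not tested, nor was that of leukocyte RNA, whose summed level is given with the other markers. In whole tissue, fewer cells of a type and less RNA per cell cannot be told apart.
Of the other markers, the gonad-enriched miR-202-5p averaged 1079 ± 164 RPM in the controls and 2420 ± 518 RPM in the hypobaric group (SD, n = 3; adjusted p = 0.0114 in limma). The 2 endothelial, 4 leukocyte, 3 smooth muscle and stromal, 5 epithelial and 3 striated muscle names tested did not pass in limma. Of all tested miRNAs 4.84% were called. An unadjusted p under 0.05 was seen for 2 of these 17, miR-150-5p and miR-145a-5p, against 20.2% of all. With edgeR the number called was 0 (5.26% of all) and with DESeq2 it was 1 (13.3% of all). That 1 was the leukocyte miR-223-3p, which was lower in the hypobaric group (DESeq2 adjusted p = 0.0154). Summed levels in the controls and the hypobaric group were 15323 to 20264 RPM and 17290 to 21334 RPM for the endothelial names. For the leukocyte names they were 574 to 791 RPM and 923 to 1070 RPM, but the members differed. miR-150-5p averaged 543 and 876 RPM and miR-223-3p averaged 131 and 104 RPM. The log2 changes of miR-142a-3p and miR-142a-5p were 0.12 and 0.09. The sums were 28388 to 37097 RPM and 30560 to 35730 RPM for smooth muscle and stroma. For epithelium they were 2496 to 3997 RPM and 3193 to 3699 RPM, and for striated muscle 249 to 328 RPM and 273 to 281 RPM. The hepatocyte miR-122-5p was between 0.222 and 1.51 RPM in all libraries.

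Around the hairpin, RefSeq lists 15 other mature miRNAs within 2 Mb on chromosome 7, of which 8 were in the table and 3 were tested. Both strands of miR-202, whose precursor (139957689 to 139957760, minus strand) lies 1264 kb away, rose. miR-202-5p was at 1257, 933 and 1047 RPM in control libraries 1, 2 and 3 and at 2385, 2955 and 1921 RPM in hypobaric libraries 1, 2 and 3, a log2 change of 1.15 ± 0.20 (SE). miR-202-3p was at 91.6, 65.1 and 183 RPM and at 353, 507 and 270 RPM in the same order. It rose by 1.81 ± 0.38 (SE) on the log2 scale, with an adjusted p = 0.0254 in limma. Hypobaric library 3 was the lowest of its group for both, as for miR-210-3p. The call on miR-202-5p was lost without hypobaric library 1 (limma adjusted p = 0.0663) or 2 (0.0558). The call on miR-202-3p was lost without normal-pressure library 1 (0.0779) or 2 (0.0833), without hypobaric library 1 (0.0987) or 2 (0.108) and with edgeR (0.0505). On the other side, 1356 kb away, lies miR-675, cut from the imprinted H19 transcript. miR-675-3p was at 6.23 ± 1.40 RPM in the controls and 6.37 ± 0.851 RPM in the hypobaric group (SD, n = 3). Its log2 change was 0.04 ± 0.22 (SE), with an adjusted p = 0.910 in limma.

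The miRNAs most like miR-210-3p were ranked by Pearson's r on log2(RPM + 1) over the 6 libraries, which fall into 2 groups, so that any miRNA differing between the groups scores high. The r values describe these libraries and carry no test. Of the other 474 tested, 20 had an r above 0.9. The highest were miR-380-5p (0.97) and miR-335-5p (0.97), both from imprinted loci, miR-144-3p of red cells (0.97), miR-20a-5p (0.96) and miR-15b-5p (0.95). miR-335-5p, cut from an intron of Mest, was at nearly the level of miR-210-3p, with 5.96, 4.92 and 6.20 RPM in control libraries 1, 2 and 3 and 15.9, 18.8 and 11.7 RPM in hypobaric libraries 1, 2 and 3. It rose by 1.28 ± 0.23 (SE) on the log2 scale, with an adjusted p = 0.0114 in limma, a call lost without hypobaric library 1 (0.0663) or 2 (0.0696).
miR-15b-5p averaged 1225 ± 158 RPM in the controls and 2225 ± 128 RPM in the hypobaric group (SD, n = 3; adjusted p = 0.0148 in limma), a call also lost without hypobaric library 1 (0.0787) or 2 (0.0699). miR-144-3p had controls between 0.177 and 0.429 RPM and was at 6.75, 4.15 and 2.31 RPM in hypobaric libraries 1, 2 and 3 (adjusted p = 0.00570 in limma). The order of the hypobaric libraries was that of miR-210-3p. In the controls it was not, since miR-144-3p was highest in library 1, where miR-210-3p was lowest. miR-380-5p averaged 0.852 ± 0.131 RPM in the controls and 1.56 ± 0.0501 RPM in the hypobaric group (SD, n = 3; adjusted p = 0.183 in limma). miR-210-5p, cut from the same hairpin, ranked 58 of 474 with an r of 0.82.
The 3 lowest were miR-132-5p (-0.95), from the gonadotropin-responsive miR-212 and miR-132 locus, a predicted miRNA without an annotated name (-0.94) and miR-935 (-0.92). miR-132-5p was at 38.5, 37.5 and 46.7 RPM in control libraries 1, 2 and 3 and at 11.6, 6.48 and 13.8 RPM in hypobaric libraries 1, 2 and 3, and fell by 1.90 on the log2 scale (limma adjusted p = 0.00513). The predicted miRNA fell from 35.4 ± 2.44 to 10.5 ± 1.29 RPM (SD, n = 3), with an adjusted p = 0.00159 in limma. miR-935 averaged 1.27 ± 0.0905 RPM in the controls and 0.962 ± 0.0238 RPM in the hypobaric group (SD, n = 3; adjusted p = 0.521 in limma).

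**Figure D5:**
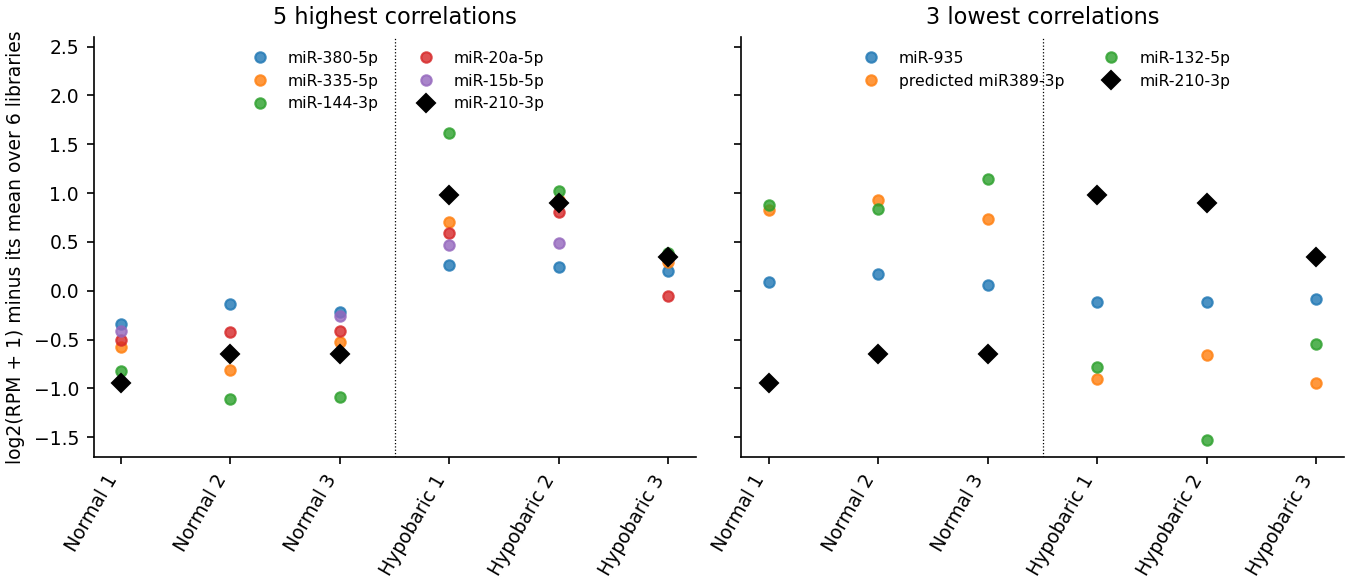
Level of miR-210-3p (black diamonds) and of the miRNAs with the 5 highest (left) and 3 lowest (right) correlations with it, by library, as log2(RPM + 1) minus its mean over the 6 libraries. The dotted line parts normal-pressure from hypobaric libraries; miR-210-3p and the 5 alike were higher in the hypobaric libraries, and the 3 on the right were lower there.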

How the data were processed

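Small RNA (1.3 µg of total RNA a library, 50-base reads) was sequenced on a DNBSEQ instrument, per the labels' protocols. Bowtie2, DESeq2 and GRCm38.p6 are listed in the submitters' processing notes with no role or version, and the assignment of reads to miRNAs is not stated there. The table deposited by the authors is called TPM by its name, but holds RPM, reads per 1000000 reads of an implied library total: all values (100%) were whole multiples of 1 read within 0.0005 RPM. Implied totals were 20800777 to 22559146 reads, of which 6852198 to 8701696 were on miRNAs. That share was 36.3%, 30.4% and 35.0% in normal-pressure libraries 1, 2 and 3. It was 41.1%, 38.0% and 38.1% in hypobaric libraries 1, 2 and 3, so RPM summed over all miRNAs was higher in each hypobaric library. Per 1000000 miRNA reads, the median log2 change of all 475 was -0.02 instead of 0.15. A single read is worth 0.0443 to 0.0481 RPM. All libraries carry batch number 1.

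Groups came from the titles. limma 3.58.1 (R 4.3.3) tested log2(RPM + 1) values, two-sided and with the variance trended on intensity, for the 475 of 1300 rows whose mean reached 1 RPM, at an adjusted p of 0.05. edgeR 4.0.16 and DESeq2 1.42.0 on the recovered reads, other pseudocounts, filters and scalings, a replicate block and leaving out libraries were alternatives. The fits were tested on simulated data. Single values used exact permutation tests (scipy 1.17.1). RNAfold 2.7.2 gave the fold. Named were both strands, the 5 highest and 3 lowest correlations, list members called or of smallest p, neighbours within 2 Mb and in rank. The members and lists were chosen with earlier results of these data known. Of 1025 annotated names, 867 matched RefSeq mature entries.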

Additional observations from a re-analysis of the deposited data

How the results depend on the processing

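The miR-210-3p call kept its direction and its side of the threshold in all 20 alternatives, with log2 changes from 1.37 to 1.68 when 1 library was left out. The miR-210-5p change stayed positive in all 19 that could test it (not tested at a mean of at least 5 RPM). With 1 library left out it was 0.46 to 0.85. It passed in 1, at 0.95, without normal-pressure library 2 and hypobaric library 3, its highest control and lowest hypobaric library. The sum of both strands ran from 1.29 to 1.62 with 1 library left out, did not pass without hypobaric library 1 or 2, and was at 1.74 without that pair. DESeq2 called 63 miRNAs against 23, leaving out 1 library gave 10 to 34, with 11 and 10 without hypobaric library 1 and 2, and leaving out the pair gave 49. In the hypoxia-associated list 1 was called. The 4 other scalings and edgeR each called 2, DESeq2 4, leaving out 1 library 0 to 2, and leaving out the pair 3. Of these, 1 was higher without hypobaric library 3 and 2 were higher without the pair. In the HIF-acting list 0 were called, DESeq2 and leaving out the pair each called 2, and leaving out 1 library gave 0 to 2. The cause of these moves was not tested. Higher calls were 15 of 23, against 12 of 26 with median-of-ratios or quantile scaling, 12 of 31 with the other 2 scalings and 11 of 25 with edgeR. The 3p share differed by 1.08 to 8.17 percentage points with 1 library left out. The log2 ratio of the strands differed by 0.63 with 0.1 RPM added to each and by 0.56 on the reads alone, the latter chosen after seeing the data. Deviations of same-numbered libraries from their group means had correlations of 0.35, -0.47 and -0.29. Within a group these deviations constrain each other, so the correlations cannot tell whether the numbers pair libraries. The labels do not say whether they do. With the replicate block miR-210-3p was at 1.49 (limma adjusted p = 0.0159) and 23 miRNAs were called. Reads per strand, 12 to 339, limit how finely the strand share can be read.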
